A study of Mus musculus with 8 samples.

Results

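The genes described here are 34 mouse genes of DNA damage signalling and double-strand break repair, measured by RNA-seq in mouse embryonic fibroblasts (MEFs). They were chosen by symbol, with earlier results of these data known. Through GENCODE vM21, all 34 names were matched to 1 row each among the 54838 gene rows of the count tables. The libraries, 2 per group, form 4 groups. Senescent cells in alkaline medium (n-Sen alkali) and senescent cells in control medium (n-Sen control) had both spent 24 h in HEPES-buffered medium of adjusted pH. Senescent cells without that step (n-Sen) and proliferating cells make up the other groups. Senescence was brought about with nutlin3a, which blocks the binding of MDM2 to p53. Cells were first synchronised in G2 with the CDK1 inhibitor RO3306, were exposed to nutlin3a for 48 h, and stayed for 14 days in 100 nM BI-2536, a PLK1 inhibitor that removes cells still dividing. All 3 senescent groups share this history, so in a difference from proliferating cells, arrest, drugs and time in culture cannot be told apart. Strain, embryo age, passage and the pH values are not stated in the labels, nor is it stated that replicates were separate cultures, so the p-values reflect variation among these libraries alone, part or all of which may be technical.

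Double-strand breaks are sensed by the MRE11-RAD50-NBN complex and signalled by the kinases ATM and ATR through CHK2 and CHK1. They are rejoined directly by end joining, which works throughout the cell cycle, or copied from the sister chromatid by homologous recombination, which is used in S and G2 phase. The Fanconi anaemia pathway unhooks crosslinks between DNA strands at stalled forks and hands the break to recombination. Many recombination and Fanconi genes are transcribed as cells enter S phase, through E2F sites, and are repressed in arrested cells through the DREAM complex, which reads E2F and CHR elements. Nutlin3a activates p53 without itself being a DNA-breaking agent, and persistent damage signalling is a common but not universal feature of senescent fibroblasts.

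Promoter sequences are shown first for 5 members that differ in how they behaved: Bard1, Polq and Rad51ap1, which fell by more than 4 on the log2 scale in n-Sen, and Chek2 and Trp53bp1, which did not pass the test. They were picked to show windows with and without E2F-type letters, with values known. Each is the RefSeq window on GRCm38.p6 from 250 bases before to 50 bases after a transcription start, written 5′ to 3′ on the gene's strand. Capitals mark E2F-type letters (TTTCCCGC, TTTCGCGC, TTTGCCGC, TTTGGCGC or the shorter GCGGGAA) and CHR-type letters (TTTGAA or TTCGAA), on either strand. GCGGGAA overlaps TTTCCCGC where both occur, as in Bard1.
Bard1, chr1:71102923-71103222, minus strand: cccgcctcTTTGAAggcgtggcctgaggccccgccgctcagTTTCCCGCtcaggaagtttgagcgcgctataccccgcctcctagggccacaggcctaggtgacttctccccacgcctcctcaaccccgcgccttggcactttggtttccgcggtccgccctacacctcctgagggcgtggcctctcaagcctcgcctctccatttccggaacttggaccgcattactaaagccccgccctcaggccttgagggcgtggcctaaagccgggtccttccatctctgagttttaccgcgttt
Polq, chr16:37011536-37011835, plus strand: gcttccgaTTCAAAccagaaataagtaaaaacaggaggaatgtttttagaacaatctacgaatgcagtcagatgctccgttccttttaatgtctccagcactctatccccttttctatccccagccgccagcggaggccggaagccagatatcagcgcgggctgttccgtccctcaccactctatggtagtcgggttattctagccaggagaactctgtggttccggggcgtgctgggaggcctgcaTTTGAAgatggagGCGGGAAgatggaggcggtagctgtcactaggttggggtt
Rad51ap1, chr6:126939538-126939837, minus strand: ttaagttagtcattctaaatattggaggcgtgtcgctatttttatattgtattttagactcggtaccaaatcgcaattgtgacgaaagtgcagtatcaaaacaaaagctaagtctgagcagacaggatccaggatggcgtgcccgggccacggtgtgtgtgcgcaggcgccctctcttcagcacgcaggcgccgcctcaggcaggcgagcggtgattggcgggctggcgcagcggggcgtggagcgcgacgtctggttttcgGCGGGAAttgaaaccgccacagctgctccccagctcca
Chek2, chr5:110839733-110840032, plus strand: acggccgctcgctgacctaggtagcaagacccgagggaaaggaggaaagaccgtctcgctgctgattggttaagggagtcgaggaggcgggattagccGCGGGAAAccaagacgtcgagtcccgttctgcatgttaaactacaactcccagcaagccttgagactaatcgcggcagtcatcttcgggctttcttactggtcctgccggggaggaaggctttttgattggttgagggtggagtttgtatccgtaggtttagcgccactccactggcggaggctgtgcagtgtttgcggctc
Trp53bp1, chr2:121271358-121271657, minus strand: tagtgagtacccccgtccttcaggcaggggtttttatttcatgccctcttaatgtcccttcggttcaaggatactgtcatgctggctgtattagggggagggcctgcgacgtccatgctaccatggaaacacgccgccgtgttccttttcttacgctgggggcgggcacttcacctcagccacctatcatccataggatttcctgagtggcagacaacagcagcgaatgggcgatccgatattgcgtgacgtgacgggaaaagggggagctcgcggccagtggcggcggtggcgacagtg
In the Polq and Rad51ap1 windows GCGGGAA begins 11 and 13 bases past the start, and in Polq a TTTGAA spans the start. The Chek2 window holds E2F-type letters although the gene did not pass, and the Trp53bp1 window holds none of the marked letters. Neil3, whose log2 fold change was -4.21 ± 0.22, has a window with CHR-type but no E2F-type letters.

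A window was found for 26 of the 34 genes, 28 windows in all; Exo1, Fancd2, Rad54b, Xrcc2, Prkdc, Nbn, Rad50 and Rif1 had no entry. GCGGGAA was present in 13 of the 28 windows (46.4%), against 4.60% of all 32851 windows. That background was not restricted to expressed genes, nor matched to the members for base composition. The longer E2F letters were present in 6 of 28 (21.4%), against 2.26% of all windows, in Bard1, Brca2, Chek2, Fancg, Msh6 and Xrcc6. CHR letters were present in 4 of 28 (14.3%), against 19.2%, and CCAAT, the box bound by NF-Y, in 17 of 28 (60.7%), against 37.4%. The 2 windows of Rad54l overlap almost fully and both hold CCAAT. By gene, CCAAT was found in 16 of 26. Of the 18 members with a log2 fold change below -2 in n-Sen, 13 had a window. GCGGGAA was found in 7 of these 13 genes and in 6 of the 13 others, among them Chek2 and Fancg. The longer E2F letters were found in 2 of the 13 and in 4 of the 13 others. Whether E2F letters go with the size of change was not tested. CHR letters were found in 3 of the 13 and in 1 of the 13 others. GCGGGAA and the division at -2 were chosen after values had been seen. A match of letters is a description of the window and not evidence of binding.

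Total counts per library ran from 40608517 to 54183060, and libraries of 1 group differed by more than sampling noise. The labels held for the known responses: Cdkn1a, the p21 gene, had 869 and 869 CPM (counts scaled by library size) in n-Sen, against 225 and 199 CPM in proliferating cells, and Mki67, the Ki-67 gene, had 9.88 and 6.37 CPM against 409.7 and 427 CPM. Fibroblast markers summed to 15931 to 18545 CPM in the 6 senescent libraries and to 11522 and 11244 CPM in proliferating cells. Of the 10 fibroblast markers, 8 were higher and 2 lower in n-Sen, the lowest with a log2 fold change of -3.17. Macrophage markers were present too. All 15 were higher in n-Sen, with a sum of 1134 and 1204 CPM against 57.2 and 50.9 CPM in proliferating cells, none of them at 0 counts in any group. Endothelial markers summed to 10.4 to 13.2 CPM in senescent libraries against 37.6 and 31.6 CPM in proliferating cells, and epithelial markers to 4.70 to 12.2 CPM against 71.6 and 65.2 CPM; Epcam and Krt5 had no counts in any senescent library. Single markers went the other way in n-Sen: 2 of 7 endothelial markers tested were higher and 3 lower, and 1 of 5 epithelial markers was higher and 3 lower. In proliferating cells Kdr had 1016 and 1043 counts and Krt19 2488 and 2622, the most of the endothelial and of the epithelial list. Pecam1 had 8 and 12 counts there and Epcam 2 and 6. The endothelial and epithelial sums therefore do not show that such cells were present. The part of macrophages or of any other cells in the results below was not tested. In such bulk RNA, fewer cells of a type and less RNA per cell cannot be told apart.

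The first comparison asks how transcripts of break repair and its signalling differ between n-Sen and proliferating cells. Of the 34 genes, 29 fell, none rose and 5 did not pass (quasi-likelihood test of edgeR, Benjamini-Hochberg adjusted over the 19264 genes tested, adjusted p under 0.05). Over all genes tested, 67.1% were called by the same rule, 33.1% as lower and 6553 genes as higher. The median log2 fold change was -2.73 for the 34 genes and 0.00 for all genes tested, of which 14.2% lay below -1, against 23 of the 34. For 31 of the 34 no n-Sen library lay within the proliferating range or the reverse, which was so for 83.4% of all genes. The 10 cell division markers fell beside them, with a median of -4.57 and a sum of 144 and 139 CPM in n-Sen against 2063 and 2045 CPM in proliferating cells. Whether loss of dividing cells accounts for any of the changes was not tested.

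**Figure D1:**
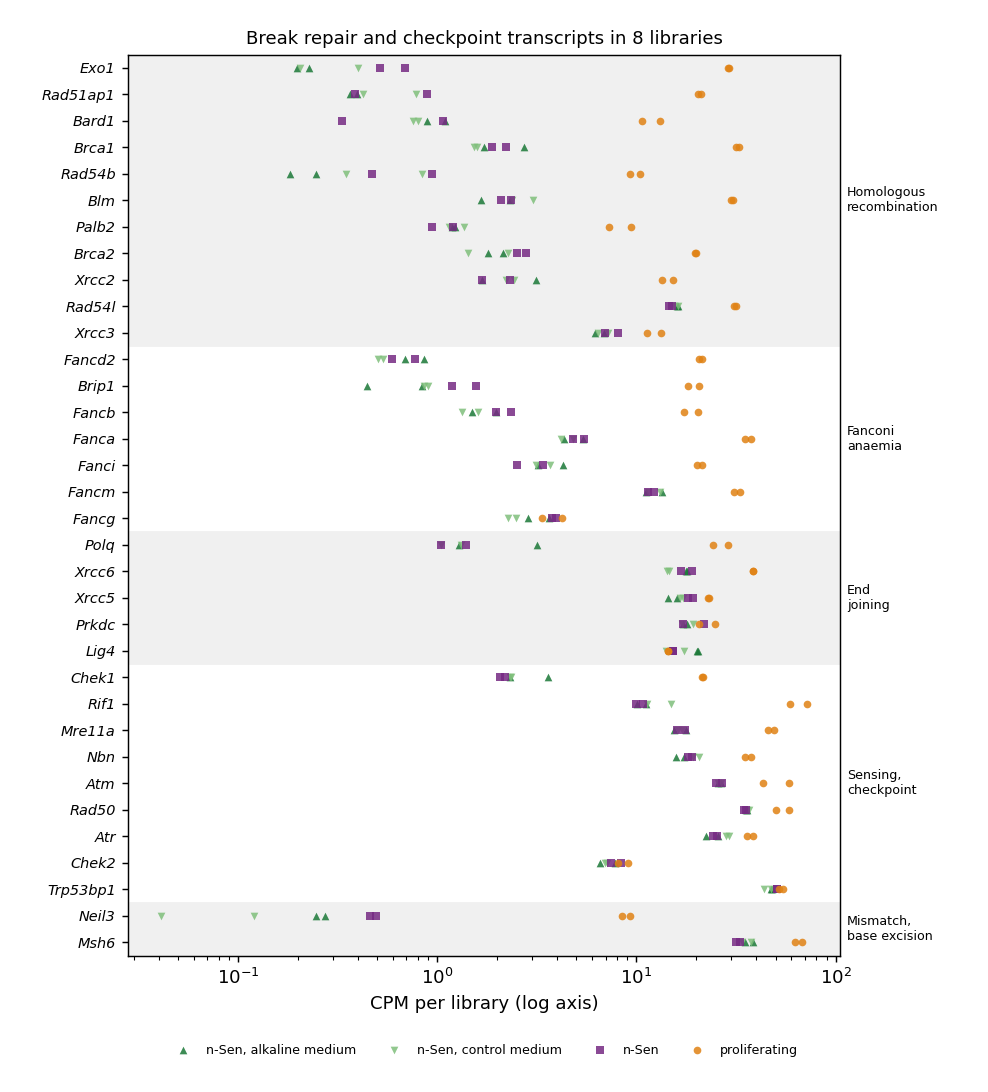
CPM of each gene (rows, grouped by role) in every library on a log axis, with 2 points for each of the 4 groups. For 30 of the 34 genes all 6 senescent points lie left of both proliferating points, and in n-Sen the distance is widest for Exo1, Rad51ap1 and Fancd2.

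All 11 homologous recombination members fell and passed the test, 9 of them by more than 2 on the log2 scale, with a median of -3.76. The lowest value was that of Exo1, the exonuclease that lengthens the resected end. Exo1 had 0.686 and 0.518 CPM in n-Sen, against 29.1 and 28.9 CPM in proliferating cells, a log2 fold change of -5.59 ± 0.16 (adjusted p = 4.38e-15 in edgeR). Its n-Sen level was 2.08% of the proliferating level, close to the 1.94% of Mki67. Rad51ap1, which encodes an accessory factor of strand invasion, had 0.386 and 0.889 CPM in n-Sen, against 20.4 and 21.1 CPM in proliferating cells, and fell by 4.98 on the log2 scale.

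BRCA1 and BARD1 form a ubiquitin ligase that promotes resection, PALB2 links it to BRCA2, and BRCA2 acts after resection, before strand invasion. Brca1 had 2.21 and 1.89 CPM in n-Sen, against 31.7 and 32.6 CPM in proliferating cells. Bard1 had 1.07 and 0.333 CPM in n-Sen, against 10.7 and 13.1 CPM in proliferating cells. The n-Sen libraries of Bard1 differed from each other, and both lay far below the proliferating ones. The log2 fold changes were -3.98 ± 0.13 for Brca1, -4.12 ± 0.29 for Bard1, -2.89 ± 0.13 for Brca2 and -2.95 ± 0.21 for Palb2. Brca2 had 2.53 and 2.8 CPM in n-Sen and 19.7 and 20.0 CPM in proliferating cells, and Palb2 had 0.943 and 1.2 CPM in n-Sen and 7.25 and 9.42 CPM in proliferating cells. The 4 genes of this chain thus all fell, with n-Sen levels between 5.92% and 13.4% of the proliferating ones.

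Blm, the Bloom helicase that dissolves joint molecules, had 2.1 and 2.35 CPM in n-Sen, against 30.7 and 29.9 CPM in proliferating cells, and fell by 3.76 on the log2 scale. Xrcc2 and Xrcc3, which act in strand invasion, parted: Xrcc2 fell by 2.83 and Xrcc3 by 0.71, the smallest fall of the 11. Xrcc3 had 8.06 and 6.98 CPM in n-Sen, against 11.3 and 13.3 CPM in proliferating cells. The translocase genes parted in the same way. Rad54b fell by 3.77 to 0.472 and 0.944 CPM in n-Sen, against 9.31 and 10.4 CPM in proliferating cells. Rad54l fell by only 1.08 to 14.5 and 15 CPM in n-Sen, against 31.5 and 30.8 CPM in proliferating cells. Both values carry annotation limits: 15.4% of the exon bases of Rad54l lie antisense to Lrrc41, and 35.9% of those of Rad54b are shared with Fsbp and Gm11832. The part of these overlaps and the differences within the Xrcc and Rad54 pairs were not tested.

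Of the 7 Fanconi genes, 6 fell and Fancg did not pass, with a median of -2.83. FANCD2 and FANCI form the clamp that is ubiquitinated at crosslinks. Fancd2 had 0.772 and 0.592 CPM in n-Sen, against 20.7 and 21.3 CPM in proliferating cells, and its log2 fold change was -4.95 ± 0.17 (edgeR adjusted p = 4.97e-14). Its partner Fanci had 2.53 and 3.39 CPM in n-Sen, against 21.3 and 20.2 CPM in proliferating cells, with a log2 fold change of -2.80 ± 0.14. The intervals of the partners (95%, -5.28 to -4.62 for Fancd2 and -3.08 to -2.52 for Fanci) do not meet; 16.0% of the exon bases of Fanci lie antisense to Polg, and the difference itself was not tested.

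Genes of the core ligase complex, which ubiquitinates the clamp, had unequal log2 fold changes, and the differences among them were not tested. Fanca fell by 2.83 on the log2 scale, with 5.44 and 4.79 CPM in n-Sen and 37.4 and 35.2 CPM in proliferating cells, and Fancb by 3.11. Fancg had 3.97 and 3.76 CPM in n-Sen, against 4.22 and 3.34 CPM in proliferating cells; the groups overlap and the log2 fold change was 0.035 ± 0.19 (edgeR adjusted p = 0.882). Fancm, the anchor of the complex on DNA, kept 37.2% of its level, with 12.3 and 11.4 CPM in n-Sen and 30.8 and 33 CPM in proliferating cells. Of the exon bases, 10.5% in Fanca lie antisense to Zfp276 and 7.07% in Fancm antisense to Gm47869 and Gm47870. The BRCA1-associated helicase gene Brip1 fell by 3.82 to 1.56 and 1.18 CPM in n-Sen, against 20.6 and 18.2 CPM in proliferating cells.

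Of the 5 end joining genes, 3 fell, with a median of -0.31. Polq, which encodes the polymerase theta of microhomology-mediated joining, had 1.05 and 1.39 CPM in n-Sen, against 24.1 and 28.7 CPM in proliferating cells, a log2 fold change of -4.42 ± 0.16 (edgeR adjusted p = 1.26e-13). The other 4 genes, of the classical route, which needs no resection, had log2 fold changes nearer to 0, from -1.11 to 0.09; the difference from Polq was not tested. Lig4, the ligase gene that seals the break, had 15.2 and 15.2 CPM in n-Sen, against 14.4 and 14.4 CPM in proliferating cells, with a log2 fold change of 0.086 ± 0.10 that did not pass (adjusted p = 0.484 in edgeR). Prkdc, the DNA-PK catalytic subunit gene, had 21.9 and 17.1 CPM in n-Sen and 20.6 and 24.8 CPM in proliferating cells; its groups overlap and it did not pass (log2 -0.22 ± 0.12).

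The Ku heterodimer, which caps broken ends, had unequal fold changes at the transcript level. Xrcc6, the Ku70 gene, had 18.9 and 16.7 CPM in n-Sen, against 38.3 and 38.7 CPM in proliferating cells, and fell by 1.11 on the log2 scale. Xrcc5, the Ku80 gene, had 19.1 and 18.1 CPM in n-Sen, against 23.3 and 22.9 CPM in proliferating cells, and fell by 0.31. The difference between the partners was not itself tested. Single libraries decided some of these calls in edgeR: Xrcc5 (adjusted p = 0.00717) missed the threshold once n-Sen replicate 2 was removed (0.060), and Prkdc (adjusted p = 0.107) passed, as lower, without n-Sen replicate 1 (0.00841) or without proliferating replicate 1 (0.00885). Over the alternatives the log2 fold change of Prkdc ran from -0.40 to -0.05.

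Among the 9 genes of break sensing and checkpoint signalling, 7 fell, with a median of -0.97, and Chek2 and Trp53bp1 did not pass. The kinase genes at the top fell by less than 1 on the log2 scale. Atm had 26.9 and 25 CPM in n-Sen, against 43.4 and 58.1 CPM in proliferating cells, and fell by 0.97. Atr had 24.1 and 25.2 CPM in n-Sen, against 35.9 and 38.6 CPM in proliferating cells, and fell by 0.59. Their target kinases were far apart: Chek1, which acts below ATR in S and G2 phase, had 2.19 and 2.07 CPM in n-Sen, against 21.6 and 21.3 CPM in proliferating cells (log2 -3.33 ± 0.13, adjusted p = 4.97e-13 in edgeR). Chek2, which acts below ATM, had 8.36 and 7.48 CPM in n-Sen, against 8.09 and 9.06 CPM in proliferating cells. These groups overlap, with a log2 fold change of -0.12 ± 0.14 (adjusted p = 0.472 in edgeR). The difference between Chek1 and Chek2 was not itself tested.

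All 3 genes of the sensor complex fell: the nuclease gene Mre11a by 1.49, Nbn, which recruits ATM, by 0.97, and the tether Rad50 by 0.63 on the log2 scale. Mre11a had 15.9 and 17.6 CPM in n-Sen, against 48.9 and 45.7 CPM in proliferating cells. Nbn had 18.9 and 18.2 CPM in n-Sen, against 37.7 and 35.1 CPM in proliferating cells. Rad50 had 35.6 and 34.8 CPM in n-Sen, against 50.4 and 58.1 CPM in proliferating cells. In no case did the groups overlap, which was so for 83.4% of all genes tested. Of the pair that protects ends from resection, Trp53bp1, the 53BP1 gene, had 50.7 and 51 CPM in n-Sen and 52.2 and 54.6 CPM in proliferating cells and did not pass (log2 -0.069 ± 0.07; 15.0% of its exon bases lie antisense to Tubgcp4). Rif1, which 53BP1 recruits and which also times replication origins, fell by 2.66 to 10.8 and 9.94 CPM in n-Sen, against 58.7 and 72.2 CPM in proliferating cells.

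The remaining genes belong to other repair routes. Neil3, a glycosylase gene of crosslink and base excision repair that is known for expression in dividing cells, had 0.493 and 0.463 CPM in n-Sen, against 8.49 and 9.28 CPM in proliferating cells (log2 -4.21 ± 0.22, edgeR adjusted p = 1.55e-11). Msh6, a mismatch recognition gene, had 31.7 and 33.1 CPM in n-Sen, against 62.7 and 67.4 CPM in proliferating cells, a fall of 1.0 on the log2 scale. Msh6 thus kept 49.8% of its level and Neil3 5.38%.

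**Figure D2:**
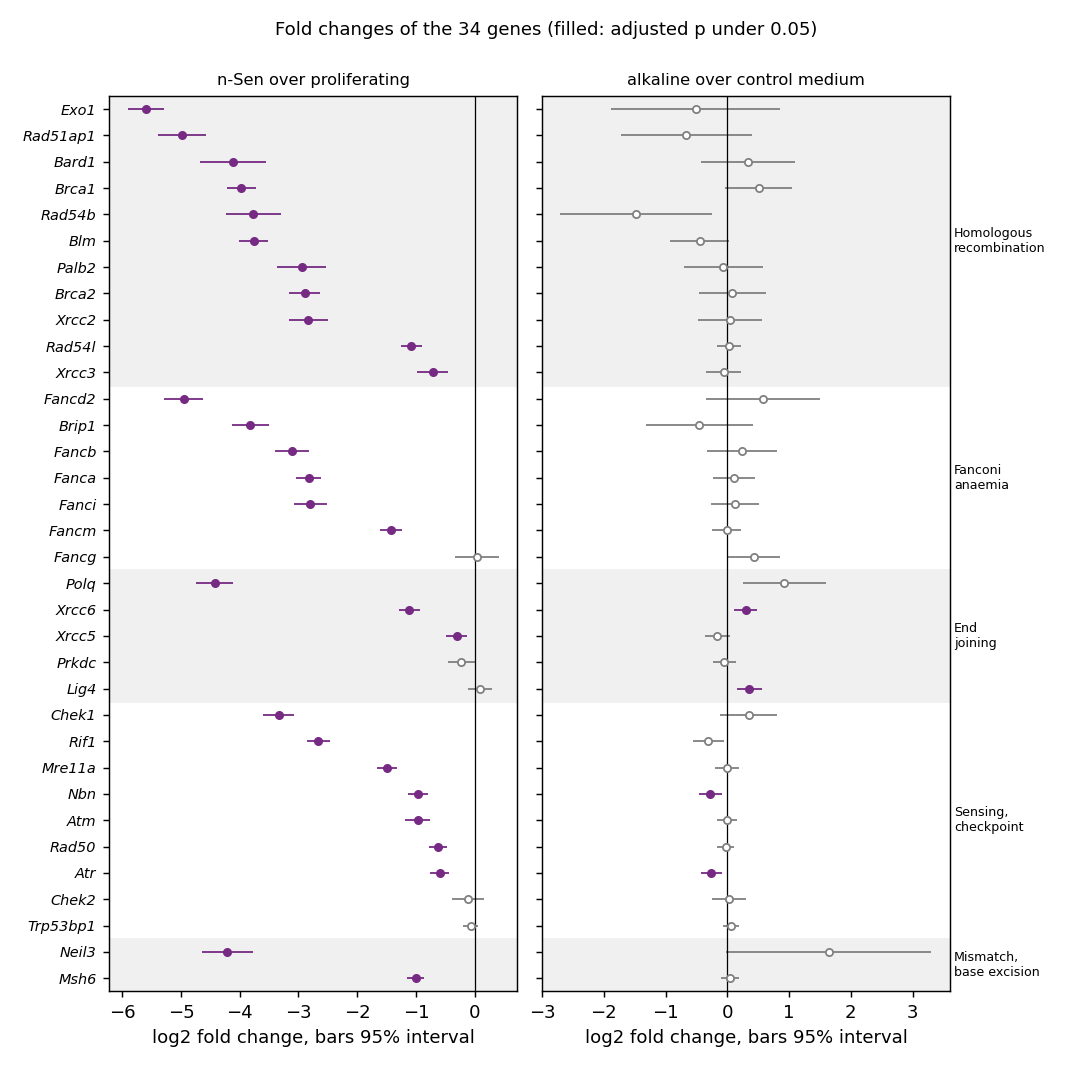
Log2 fold changes of the 34 genes by role, n-Sen over proliferating (left) and alkaline over control medium (right), with bars of 95% intervals; filled points have an adjusted p under 0.05. On the left 29 points are filled and lie below 0, from -5.59 to -0.31; on the right 4 are filled, none beyond 0.36 in size.

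Set against transcript length, the order of the genes changed with senescence. Per kilobase of the longest coding transcript, the members' median level was 1.18 CPM in n-Sen and 4.74 CPM in proliferating cells. In proliferating cells the range ran from 1.37 CPM per kb for Fancg to 15.3 for Msh6. In n-Sen it ran from 0.0772 for Exo1 to 7.62 for Msh6, followed by Nbn (7.33), Xrcc5 (7.29) and Rad50 (6.83). Fancg, the lowest per length in proliferating cells, stood at 1.39 in n-Sen, above Fancd2 (0.124) and Brca1 (0.312), which had been at 3.81 and 4.89 in proliferating cells. The lowest member count in an n-Sen library was 18, for Bard1 and for Rad51ap1, and 12 of the 34 genes had under 100 counts in at least 1 n-Sen library, whereas none did in proliferating cells.

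Other genes of these repair routes, with nucleotide excision repair added, were taken from lists used in full. These lists, like the members, were chosen with earlier results of these data known. Of 112 tested, 81 fell (72.3%, against 33.1% of all genes), 13 rose (against 6553 of all 19264 genes) and 18 did not pass, with a median log2 fold change of -0.74. Homologous recombination genes fell in 22 of 29 cases and rose in 4. The anti-recombinase gene Fignl1 fell by 4.55 and the single-strand binding gene Rpa1 by 1.84 on the log2 scale. Those that rose were Swsap1 (0.82 ± 0.17), the nuclease genes Mus81 (0.32 ± 0.10) and Fan1 (0.36 ± 0.13), and Rad51d (0.30 ± 0.11). Other Fanconi genes fell in 10 of 13 cases, among them by smallest p the clamp deubiquitinase Usp1 (-2.45 ± 0.08), Rfwd3 and the conjugating enzyme Ube2t (-4.54 ± 0.24), and Faap20 rose (0.47 ± 0.12).

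Other end joining genes fell in 10 of 14 cases, among them Parp1 (-2.28 ± 0.07), Xrcc1 and Parp2, which act in single-strand break and alternative end joining repair, while the Ku-binding factor Paxx rose (1.06 ± 0.19). Other signalling genes fell in 21 of 25 cases and none rose. The CHK1 adaptor Clspn had 2.27 and 1.91 CPM in n-Sen, against 55.8 and 57.6 CPM in proliferating cells (log2 -4.77 ± 0.11), the ATR activator Topbp1 fell by 2.17 and the break-marking histone gene H2afx by 2.21. Mismatch repair genes fell in 5 of 6 cases, among them Msh3 (-1.61 ± 0.13) and Pms2, and Mlh3 rose (0.49 ± 0.10). Base excision genes fell in 6 of 11 cases, with the smallest p for the uracil glycosylase Ung (-2.94 ± 0.17), and Neil1, Neil2 and Mpg rose (35.7% of the exon bases of Mpg lie antisense to Nprl3).

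Nucleotide excision repair, which removes bulky lesions in all phases of the cycle, had the median nearest to 0 of the lists described here, at -0.16, with 7 of 14 genes lower, 3 higher and 4 not passing. Those that rose were Ercc5 (1.05 ± 0.08), the damage sensor Xpc (0.42 ± 0.11) and Ddb2 (0.85 ± 0.15), a known p53 target in human cells; 23.8% of the exon bases of Ddb2 lie antisense to Acp2. By smallest p, those that fell included Rad23b (-0.46 ± 0.05), Gtf2h1 (-0.49 ± 0.06) and Ercc8 (-1.29 ± 0.18). The count of pathway genes that rose was 8 in place of 13 in DESeq2, and also 8 without n-Sen replicate 1.

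**Figure D3:**
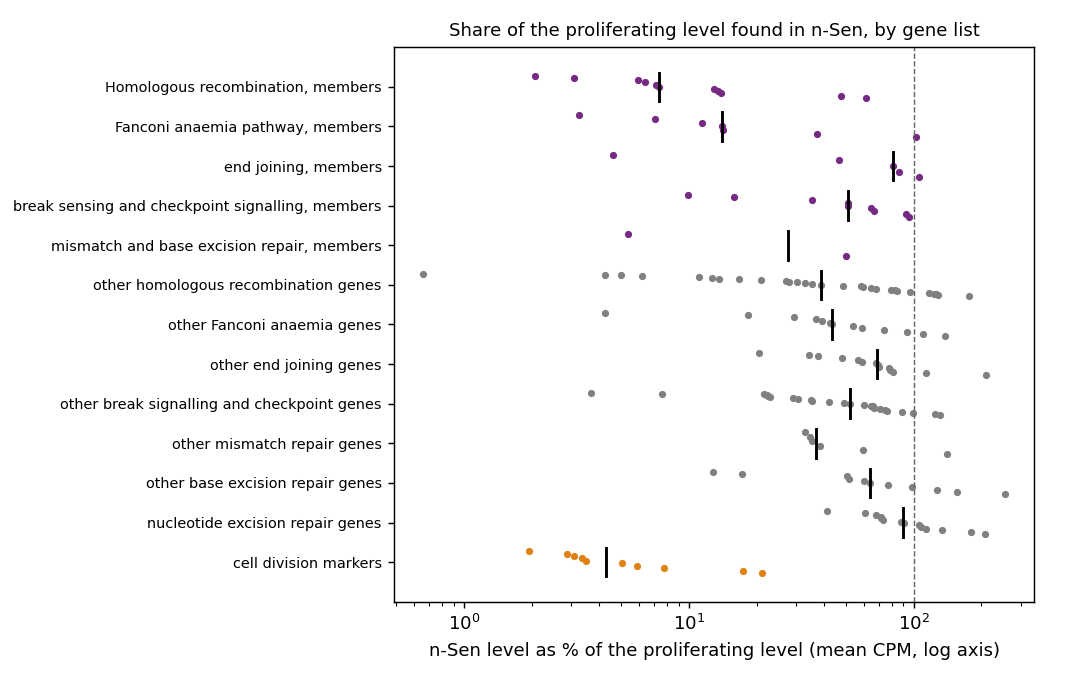
Mean n-Sen level as a percentage of the mean proliferating level, 1 point per gene on a log axis with a bar at the median; purple points are the 34 genes, grey points other repair genes and orange points division markers. Homologous recombination members centre on 7.35% and division markers on 4.27%, while the end joining members centre on 80.8% and the dashed line marks an equal level at 100%.

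The second comparison, alkaline against control medium in senescent cells, is the one the design text of the series gives as its purpose. Of the 34 genes, 2 rose, 2 fell and 30 did not pass (quasi-likelihood test of edgeR, Benjamini-Hochberg adjusted over 19129 genes, adjusted p under 0.05). Of all genes, 20.0% were called, 9.58% higher and 10.4% lower, beside 4 of the 34 (11.8%). All 4 were among the 14 members averaging 10 CPM or more, and none of the 20 members under 10 CPM was called. The share over all genes was not matched to the members for level. The median log2 fold change was 0.02 for the members and -0.01 for all genes. Groups did not overlap for 16 of the 34, where 56.7% of all genes had no overlap. At an unadjusted p under 0.05 there were 7 of the 34, and 5874 of all 19129 genes. DESeq2 called 0 of the 34, and 2783 of the 29303 genes with any count, as the low-count filter of edgeR was not applied there.

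The genes that rose were Lig4 and Xrcc6. Lig4 had 20.3 and 20.2 CPM in alkaline medium, against 17.3 and 14.1 CPM in control medium, a log2 fold change of 0.36 ± 0.10 (adjusted p = 0.0140 in edgeR). Xrcc6 had 17.6 and 18 CPM in alkaline medium, against 14.6 and 14.2 CPM in control medium, a log2 fold change of 0.29 ± 0.10 (adjusted p = 0.0339 in edgeR). For both genes the alkaline libraries lie above the control ones without overlap, and 56.7% of all genes had no overlap between these groups. Their partners did not pass: Xrcc5 had a log2 fold change of -0.16 ± 0.10 and Prkdc one of -0.046 ± 0.10.

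The genes that fell were Atr and Nbn; the other 7 genes of sensing and signalling did not pass. Atr had 22.3 and 25.6 CPM in alkaline medium, against 29.1 and 28 CPM in control medium, and fell by 0.26 on the log2 scale (adjusted p = 0.0326 in edgeR). Nbn had 15.7 and 17.3 CPM in alkaline medium, against 19.3 and 20.6 CPM in control medium, and fell by 0.28 (adjusted p = 0.0417 in edgeR). Atm had 25.5 and 26.6 CPM in alkaline and 25.6 and 26.5 CPM in control medium. Its log2 fold change was -0.0047 ± 0.08 with an interval from -0.16 to 0.15, and its difference from Atr and Nbn was not tested. Mre11a, Rad50 and Trp53bp1 had intervals from -0.20 to 0.20, from -0.16 to 0.11 and from -0.062 to 0.19.

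None of these 4 calls held under every alternative. By edgeR's adjusted p, Xrcc6 did not pass when any 1 of the 4 libraries was left out (0.0755 and 0.136 without control replicates 1 and 2, 0.0804 and 0.128 without alkali replicates 1 and 2). Lig4 did not pass without control replicate 2 (log2 0.22, adjusted p = 0.229 in edgeR). Atr did not pass without control replicate 1 (0.121) or alkali replicate 1 (log2 -0.17, 0.333), and Nbn without control replicate 2 (0.221) or alkali replicate 1 (0.253). DESeq2's adjusted p was 0.122 for Xrcc6, 0.0548 for Lig4, 0.120 for Atr and 0.157 for Nbn. The direction was the same for all 4 genes in all alternatives tried. Exon overlap with other genes covers 7.69% of the exon bases of Xrcc6 (antisense to Desi1) and 5.78% of those of Atr, and none of those of Lig4 and Nbn.

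**Figure D4:**
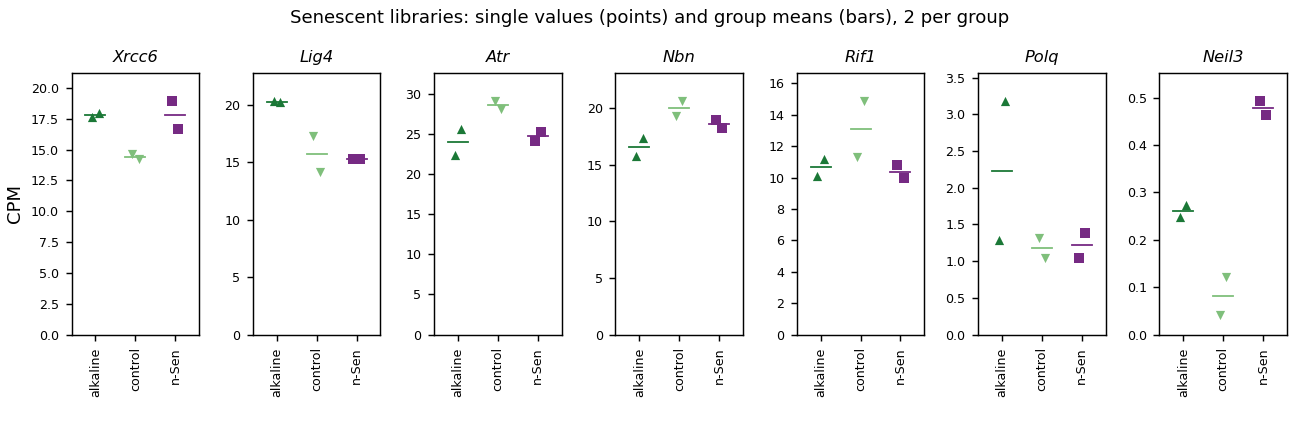
CPM of 7 genes in the 6 senescent libraries, from left to right in each panel alkaline medium, control medium and n-Sen, with axes from 0. Lig4 and Xrcc6 lie higher and Atr and Nbn lower in both alkaline libraries than in both control libraries, while the Polq difference rests on 1 alkaline library at 3.18 CPM.

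None of the 18 genes of recombination and the Fanconi pathway passed, and most were at low levels in both media. Exo1 had 0.198 and 0.227 CPM in alkaline and 0.205 and 0.402 CPM in control medium, against 29.1 and 28.9 CPM in proliferating cells. Fancd2 had 0.694 and 0.864 CPM in alkaline and 0.533 and 0.502 CPM in control medium, against 20.7 and 21.3 CPM in proliferating cells. Brca1 had 2.72 and 1.73 CPM in alkaline and 1.58 and 1.53 CPM in control medium, a log2 fold change of 0.51 ± 0.28 that did not pass (adjusted p = 0.227 in edgeR). Rad54l and Fancm, at 10 CPM or more, had log2 fold changes of 0.024 ± 0.10 and -0.0080 ± 0.12, so for them smaller changes could have been seen than for the genes at low levels. The 7 members averaging under 1 CPM had an SE between 0.39 and 0.85, whereas the 14 members at 10 CPM or more had an SE between 0.07 and 0.13 and log2 fold changes between -0.31 and 0.36.

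The widest log2 fold changes were those of Neil3 (1.64 ± 0.85) and Rad54b (-1.48 ± 0.63), on few reads. Neil3 had 10 and 12 counts in alkaline medium, against 2 and 6 counts in control medium, and Rad54b had 10 and 8 counts in alkaline medium, against 17 and 42 counts in control medium. Neither passed (adjusted p = 0.198 and 0.105 in edgeR), though both did in a fit of all 8 libraries (adjusted p = 0.0388 and 0.0369). Polq had 1.29 and 3.18 CPM in alkaline medium, against 1.31 and 1.05 CPM in control medium. Its log2 fold change of 0.92 ± 0.34 did not pass (adjusted p = 0.0612 in edgeR) but passed in several alternatives, with an adjusted p of 0.000112 without alkali replicate 1, the library that overlaps the control ones, and a log2 fold change of 0.12 (adjusted p = 0.904) without alkali replicate 2. Rif1 (-0.31 ± 0.13, adjusted p = 0.0998 in edgeR) passed without control replicate 1 (0.00552) or alkali replicate 2 (0.0466).

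Of 110 other genes of these routes tested, 8 rose and 3 fell, a share of 10.0% against the 20.0% over all genes, with a median of -0.03. Among those that rose were Trp53, the p53 gene (0.23 ± 0.06), the clamp loader Rad17 (0.30 ± 0.09), Rpa1 (0.23 ± 0.06), the gap-filling polymerase Polm (0.34 ± 0.10) and the nucleotide excision genes Rad23b, Ddb1 and Ercc6, by 0.16 to 0.27. Among those that fell were the Werner helicase gene Wrn (-0.42 ± 0.10) and Ercc5 (-0.33 ± 0.06). Trp53 had 81.1 and 79.2 CPM in alkaline medium, against 65.8 and 69.9 CPM in control medium. DESeq2 called 5 of these pathway genes higher in place of 8. Beside them, 8 of the 15 macrophage markers fell and none rose, with a sum of 1020 and 1017 CPM in alkaline medium against 1164 and 1103 CPM in control medium; their part in these results was not tested. Of the 10 fibroblast markers 6 fell, by up to 1.43 on the log2 scale, and 3 rose, and the epithelial marker Cldn4, singled out after its values were seen, had 253 and 325 counts in alkaline medium against 54 and 41 counts in control medium. Their part was not tested either. Of the division markers 1 of 10 passed, the ribonucleotide reductase gene Rrm2, a supplier of deoxynucleotides, with 72.5 and 63.1 CPM in alkaline and 43.7 and 45.3 CPM in control medium (log2 0.60 ± 0.07), while Mki67 had a log2 fold change of -0.19 ± 0.14.

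The third comparison sets control medium against n-Sen cells that had no such medium. These groups come from different tables, and the medium cannot be told apart from a difference between tables; the comparison also shares libraries with both others. In a fit of all 8 libraries, 3 of the 34 genes fell and none rose (quasi-likelihood test of edgeR, Benjamini-Hochberg adjusted over 20215 genes), where 11.1% of all genes were called, 4.96% of them lower and 6.18% higher as shares of all. The median was -0.08 for the members and 0.00 for all genes. Groups did not overlap for 21 of the 34, against 52.0% of all genes. Neil3 had 0.041 and 0.121 CPM in control medium, against 0.493 and 0.463 CPM in n-Sen, with a log2 fold change of -2.52 ± 0.47 (adjusted p = 0.000827 in edgeR) on 2 and 6 counts against 23 and 25.

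Fancg had 2.28 and 2.49 CPM in control medium, against 3.97 and 3.76 CPM in n-Sen, and fell by 0.69 on the log2 scale. Xrcc6 had 14.6 and 14.2 CPM in control medium, against 18.9 and 16.7 CPM in n-Sen, and fell by 0.30. Both calls (adjusted p = 0.0279 and 0.0381 in edgeR) depended on single libraries. Fancg did not pass without n-Sen replicate 1 (0.151) or 2 (0.0875), or without control replicate 1 (0.181) or 2 (0.0868), nor in DESeq2 (0.0697). Xrcc6 did not pass without n-Sen replicate 1 (0.367) or without control replicate 1 (0.134) or 2 (0.197). The Xrcc6 level in alkaline medium, 17.6 and 18 CPM, lies within the range of the n-Sen libraries. Division markers moved beside these genes, with 5 of 10 lower and none higher, a sum of 122 and 118 CPM in control medium against 144 and 139 CPM in n-Sen; their part was not tested.

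Across the 3 senescent groups, 30 of the 34 genes had all 6 libraries below both proliferating ones, where 33.8% of all genes did. The exceptions were Fancg, Prkdc, Lig4 and Chek2. As a share of the proliferating mean, Brca1 stood at 6.92% in alkaline medium, 4.83% in control medium and 6.37% in n-Sen. Chek1 stood at 13.8%, 10.9% and 9.92% in the same order, and Rad50 at 65.8%, 66.7% and 64.8%. Lig4 alone of the 34 had a mean above the proliferating one in all 3 senescent groups, at 141%, 109% and 106%.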

How the data were processed

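Polyadenylated RNA of 8 MEF libraries was sequenced from strand-marked (dUTP) libraries, per the labels' protocols. Reads were processed with fastp 0.23.2, HISAT2 2.1.0 and featureCounts of Subread 2.0.2 on mm10, per the submitters' processing notes; the strand setting of the counting is not given in the sources used here. The authors deposited expected counts (estimated, not normalised) per gene in 2 tables, with 32.7% to 33.7% of a library's nonzero values fractional. Without the strand setting, antisense overlaps may not be separated: 14 of the 34 genes share exon bases with other genes.

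Values were rounded, low genes removed by filterByExpr and TMM factors computed; tests are those of edgeR 4.0.16 (quasi-likelihood, R 4.3.3), with Benjamini-Hochberg adjustment over all genes and a threshold of 0.05. The 2 comparisons within a table were fitted on their own and the third in a fit of all 8. The procedure was also run on simulated counts, with the same spread for every gene. The fold changes put in were larger than those of the members called in alkaline medium, so that run does not bear on those calls. CPM use the TMM scaling of all 8 libraries, and ± is the SE, the log2 fold change over the square root of F; intervals are 95% by the normal approximation. Levels per kb divide by the longest protein-coding GENCODE vM21 transcript. DESeq2 1.42.0 and the alternatives of the closing section were run beside it. The members and gene lists were chosen with earlier results of these data known. Named genes are all members, up to 3 called genes of smallest p per direction in each pathway list, the senescence genes and Mki67; counts of 5 or fewer are also named. A few pathway genes that these rules name are not reported here. Rrm2, the single cell type markers named and the E2F letters GCGGGAA were singled out after values were seen.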

Additional observations from a re-analysis of the deposited data

How the results depend on the processing

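For n-Sen against proliferating cells, 28 to 30 of the 34 genes were lower when 1 library was left out and 29 under every other alternative tried (RLE or library-size scaling, DESeq2, no or a stricter filter on low counts, values not rounded, the replicate block, all 8 libraries in the fit); none was higher in any. The members' median stayed between -2.78 and -2.61. Other pathway genes called higher were 8 in place of 13 in DESeq2, and 8 to 13 when 1 library was left out. For alkaline against control medium, DESeq2 called 0 members lower, 0 members higher and 5 other pathway genes higher, in place of 2, 2 and 8, and the fit of all 8 libraries called 4 members higher; without 1 library, 0 to 3 members were lower and 0 to 2 higher. For control medium against n-Sen, 1 to 3 members were lower and 0 to 1 higher without 1 library, in place of 3 and 0, and 1 was higher with no filter on low counts; over all genes, 2253 were called, and 1181 to 1382 without 1 library. The causes were not tested. With the replicate number as a block, 29 members were lower in the first comparison, 2 lower and 3 higher in the second, and 3 lower in the last. In the labels, same-numbered libraries share only a number, and their deviations were correlated at -0.030, -0.0089 and -0.0032. These values do not show whether such libraries were handled together. No called member changed its direction under any alternative, and other genes were not checked for this. Depth limits the comparisons among senescent cells for the 20 members averaging under 10 CPM, whose SE reached 0.85 and 0.47.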
